A study of Mus musculus with 6 samples.

Results

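The FoxO transcription factor genes Foxo1, Foxo3 (older Foxo3a) and Foxo4, the thioredoxin inhibitor gene Txnip, the sestrin genes Sesn1 and Sesn3, and the antioxidant enzyme genes Sod1, Sod2 and Cat were followed across sorted blood stem and progenitor cells. Every probe set annotated to 1 of these 9 genes alone was taken, which gave 28 of the 34945 probe sets that carried a single gene symbol. RNA had been hybridised to Affymetrix expression arrays from LSK cells, the lineage-negative, Kit-positive, Sca1-positive cells of the bone marrow of mice aged 10 to 14 weeks. Gates on the antigens CD34 and Flt3 divided them into CD34+Flt3hi, CD34+Flt3- and CD34-Flt3- cells, and each gate has 2 arrays. A code in the array titles, called A here, was shared by replicate 2 of every group, a code B by replicate 1 of CD34+Flt3hi and CD34+Flt3- cells, and a code C stood on replicate 1 of CD34-Flt3- cells alone. All groups share the LSK gate, and the labels name no strain, genotype or treatment, nor whether separate mice or sorts lie behind a gate's 2 arrays. What the p-values weigh is therefore the scatter of the arrays, possibly only technical. In sorted populations, fewer cells that make an RNA and less RNA per cell cannot be told apart.

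FoxO factors are forkhead transcription factors that growth factor signalling holds in the cytoplasm: the kinase Akt, activated through PI3K, phosphorylates them, and without that signal they enter the nucleus. There they drive genes for cell cycle arrest, autophagy and the removal of reactive oxygen. In mouse blood stem cells, joint loss of Foxo1, Foxo3 and Foxo4 is known to raise reactive oxygen and to cost the cells their quiescence, and loss of Foxo3 alone does so more mildly. Sod1 and Sod2 encode the superoxide dismutases of the cytosol and of the mitochondria, which turn superoxide into hydrogen peroxide, and catalase, the product of Cat, breaks that peroxide down. Txnip encodes an arrestin-like protein that binds thioredoxin and limits glucose uptake, and the sestrins are stress-induced proteins that restrain mTORC1.

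Values are log2 of the deposited intensities. Each gene was read from its brightest probe set for the tests over all 18193 genes, and all 28 probe sets were also fitted singly among the 34945. One limma fit of the 6 arrays, a linear model that borrows the spread of other genes, gave 3 comparisons, with p-values adjusted by Benjamini and Hochberg and a threshold of 0.05. CD34+Flt3- against CD34-Flt3- cells is called the CD34 step, CD34+Flt3hi against CD34+Flt3- cells the Flt3 step, and CD34+Flt3hi against CD34-Flt3- cells the full span. Background was set at a log2 of 4.50, which 90% of the values of the 27 bacterial control probe sets on the 6 arrays did not exceed. All 9 brightest probe sets lay above it on all 6 arrays.

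Read from its brightest probe set, each of the 9 genes had a lower mean in both CD34+ gates than in CD34-Flt3- cells. Of the 28 probe sets, 23 had a lower mean in the CD34 step and 21 in the full span, while 5 and 7 had a higher one. Txnip had the widest difference of the 9, with a 5.31-fold lower level in CD34+Flt3hi cells and a 4.41-fold lower level in CD34+Flt3- cells, each against CD34-Flt3- cells. Sesn1, Foxo3, Sesn3 and Cat had their lowest mean in the middle gate, CD34+Flt3-, and of these only Sesn1 had a call. Foxo1, Foxo4, Txnip, Sod1 and Sod2 had theirs in CD34+Flt3hi cells. Cat had no difference past the threshold. Between CD34+Flt3- and CD34-Flt3- cells, 2 of the 9 genes fell (Txnip and Sesn1) and 0 rose, against 1.33% of all genes that fell and 0.770% that rose. Between CD34+Flt3hi and CD34-Flt3- cells, 3 fell (Txnip, Foxo1 and Sod1) and 0 rose, against 3.50% and 2.62% of all genes. Between CD34+Flt3hi and CD34+Flt3- cells 0 of the 9 passed by limma, against 0.610% of all genes in either direction, and 1 (Sesn1) had an unadjusted p under 0.05, as did 6.76% of all genes. The median log2 difference of the 9 genes was -0.75 for the CD34 step, -0.64 for the full span and -0.21 for the Flt3 step, where the medians of all genes were -0.10, -0.07 and 0.03.

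**Figure D1:**
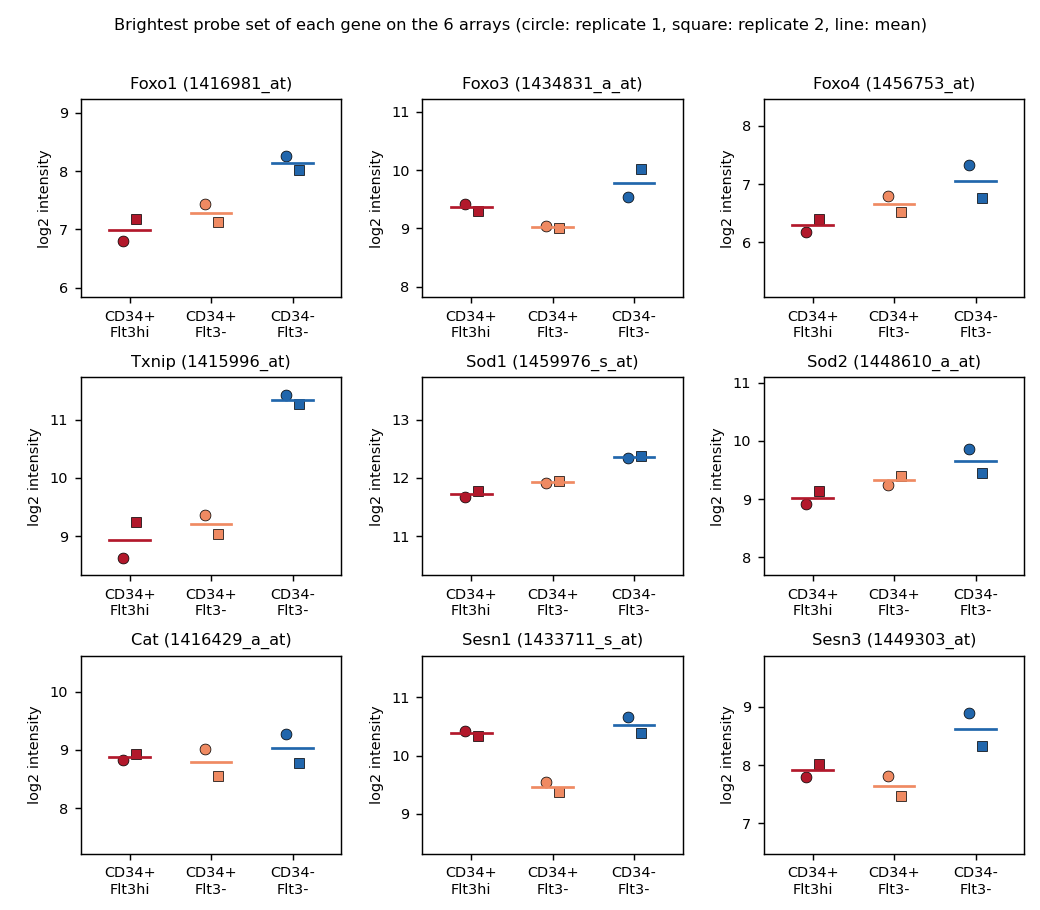
Log2 intensity of the brightest probe set of each of the 9 genes (y axis, the same span in every panel) in CD34+Flt3hi, CD34+Flt3- and CD34-Flt3- cells (x axis); circles are replicate 1, squares replicate 2 and lines group means. The Txnip arrays of CD34-Flt3- cells, at 11.42 and 11.27, lie above all others of that gene, and the Sesn1 arrays of CD34+Flt3- cells, at 9.54 and 9.37, lie below all others of that gene.

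Among the FoxO factors, Foxo1 (Entrez gene 56458, probe set 1416981_at) read 6.80 and 7.17 in CD34+Flt3hi cells, 7.44 and 7.12 in CD34+Flt3- cells, and 8.27 and 8.01 in CD34-Flt3- cells. The CD34-Flt3- arrays lay above the other 4, and the arrays of the other gates overlapped. Foxo1 fell by 1.15 ± 0.28 on the log2 scale in CD34+Flt3hi cells, against CD34-Flt3- cells (SE, n = 2; limma adjusted p = 0.0378), a 2.22-fold lower level. The difference of CD34+Flt3- from CD34-Flt3- cells, -0.86 ± 0.28, did not pass (limma adjusted p = 0.154). Of the other Foxo1 probe sets, 1416982_at and 1416983_s_at gave differences of -1.02 and -0.93 between CD34+Flt3hi and CD34-Flt3- cells, and the dimmer 1456529_at gave 0.10. The call rests on every array but CD34-Flt3- replicate 2: the limma adjusted p was 0.417 without replicate 1 and 0.172 without replicate 2 of CD34+Flt3hi cells, 0.0583 and 0.0582 without those of CD34+Flt3- cells, and 0.0600 without CD34-Flt3- replicate 1. It was also lost with the mean of all Foxo1 probe sets (-0.75, adjusted p = 0.0943), with all probe sets fitted singly (0.0535) and with only the 4 arrays compared (0.0579).

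Foxo3 (Entrez gene 56484, probe set 1434831_a_at) read 9.43 and 9.30 in CD34+Flt3hi cells, 9.04 and 9.01 in CD34+Flt3- cells, and 9.54 and 10.03 in CD34-Flt3- cells. No arrays overlapped between any of the groups, and the middle gate was lowest. None passed: the difference was -0.75 ± 0.24 for CD34+Flt3- minus CD34-Flt3- (SE; limma adjusted p = 0.147), 0.34 ± 0.24 for CD34+Flt3hi minus CD34+Flt3- (adjusted p = 0.914) and -0.42 ± 0.24 for CD34+Flt3hi minus CD34-Flt3- (adjusted p = 0.409). The first of these passed without CD34-Flt3- replicate 1 (limma adjusted p = 0.0367). Probe set 1434832_at read 7.41 and 7.35, 7.49 and 7.27, and 7.97 and 7.79 in the same order, again highest in CD34-Flt3- cells. Its CD34+Flt3hi and CD34+Flt3- arrays overlapped. Probe set 1450236_at lay between 4.27 and 5.05, near background, with its highest mean, 4.92, in CD34+Flt3- cells. The middle gate was thus lowest in the brightest Foxo3 probe set alone.

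Foxo4 (Entrez gene 54601, probe set 1456753_at) averaged 6.29 ± 0.16 in CD34+Flt3hi cells, with 6.65 ± 0.19 in CD34+Flt3- cells and with 7.05 ± 0.40 in CD34-Flt3- cells (SD, n = 2 each). The arrays of the last pair of gates overlapped (6.79 and 6.52 against 7.33 and 6.77), and no comparison passed. The difference between CD34+Flt3hi and CD34-Flt3- cells was -0.76 with a 95% interval of -1.42 to -0.09 before adjustment (limma adjusted p = 0.206). The other Foxo4 probe set, 1422149_at, ran the opposite way at 4.87 and 4.60, 4.53 and 4.68, and 3.98 and 4.16, below background in CD34-Flt3- cells.

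Txnip (Entrez gene 56338, probe set 1415996_at), a gene that FoxO factors and glucose are both known to control, read 8.63 and 9.24 in CD34+Flt3hi cells, 9.36 and 9.04 in CD34+Flt3- cells, and 11.42 and 11.27 in CD34-Flt3- cells. Both CD34-Flt3- arrays lay far above the other 4, and the other gates overlapped. Txnip fell by 2.14 ± 0.25 in CD34+Flt3- cells (SE, n = 2; limma adjusted p = 0.00889; 2.23 lower within title code A) and by 2.41 ± 0.25 in CD34+Flt3hi cells (adjusted p = 0.000713; 2.03 lower within title code A), each against CD34-Flt3- cells. Between CD34+Flt3hi and CD34+Flt3- cells it differed by -0.27, with a 95% interval of -0.84 to 0.30 (limma adjusted p = 0.955). The dimmer probe set 1415997_at read 6.10 and 5.81, 5.96 and 5.65, and 8.23 and 6.85 in the same order. Its CD34-Flt3- arrays also lay above the rest but spread more widely, and its differences of -1.73 and -1.58 did not pass in the fit of single probe sets (limma adjusted p = 0.0922 and 0.0725). Without CD34+Flt3- replicate 2 the fall in CD34+Flt3- cells was 1.98 and was no longer called (adjusted p = 0.168), in a fit that called 0 of all genes in that comparison. The fall in CD34+Flt3hi cells passed in each of the 20 other settings tried, with adjusted p up to 0.0151.

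Sesn1 (Entrez gene 140742, probe set 1433711_s_at) was lowest in the middle gate, as Foxo3, Sesn3 and Cat were by the means of their brightest probe sets. It read 10.43 and 10.33 in CD34+Flt3hi cells, 9.54 and 9.37 in CD34+Flt3- cells, and 10.66 and 10.39 in CD34-Flt3- cells. Both CD34+Flt3- arrays lay below the other 4, and the outer gates overlapped. Sesn1 fell by 1.07 ± 0.20 in CD34+Flt3- cells, against CD34-Flt3- cells (SE, n = 2; limma adjusted p = 0.0341), a 2.09-fold lower level. In the Flt3 step it was 0.92 ± 0.20 higher in CD34+Flt3hi cells, 0.96 within title code A and 0.88 within title code B, which did not pass (limma adjusted p = 0.116). The outer gates differed by -0.14, with a 95% interval of -0.60 to 0.31. Between these gates 1438931_s_at, 1444376_at and 1454699_at differed the other way, by 0.58, 0.25 and 0.16, and did not pass. Probe sets 1438931_s_at and 1454699_at were lowest in CD34+Flt3- cells too, at 7.44 to 8.03 and 7.01 to 7.28, and every array of the other gates read higher. Their differences of CD34+Flt3hi from CD34+Flt3- cells were 1.21 and 1.04. The call of CD34+Flt3- against CD34-Flt3- cells was lost without CD34+Flt3hi replicate 1 or 2 (limma adjusted p = 0.115 each) and without CD34+Flt3- replicate 1 (0.0774) or 2 (0.290), and with 4 other settings. The rise in CD34+Flt3hi over CD34+Flt3- cells passed without CD34-Flt3- replicate 1 (adjusted p = 0.0272) or 2 (0.0280), with only the 4 arrays compared (0.0287) and with array weights (0.0215).

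Sesn3 (Entrez gene 75747, probe set 1449303_at), a sestrin gene that FoxO factors are known to induce, read 7.79 and 8.02 in CD34+Flt3hi cells, 7.81 and 7.46 in CD34+Flt3- cells, and 8.90 and 8.33 in CD34-Flt3- cells. The CD34-Flt3- arrays lay above the other 4. The differences from them, -0.71 ± 0.29 in CD34+Flt3hi cells and -0.98 ± 0.29 in CD34+Flt3- cells, did not pass (limma adjusted p = 0.222 and 0.119). The difference of CD34+Flt3- cells passed without CD34-Flt3- replicate 2, at -1.26 (limma adjusted p = 0.0335). Probe set 1453313_at lay between 5.35 and 6.23 with overlapping groups.

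Of the scavenger genes, Sod1 (Entrez gene 20655, probe set 1459976_s_at) read 11.67 and 11.78 in CD34+Flt3hi cells, 11.91 and 11.95 in CD34+Flt3- cells, and 12.34 and 12.38 in CD34-Flt3- cells. The gates stood in that order with no overlap, and the changes were small. Sod1 fell by 0.64 ± 0.14 in CD34+Flt3hi cells, against CD34-Flt3- cells (SE, n = 2; limma adjusted p = 0.0287), a 1.56-fold lower level. The difference of CD34+Flt3- from CD34-Flt3- cells, -0.43 ± 0.14, did not pass (adjusted p = 0.165). Probe set 1451124_at, nearly as bright, gave 11.23 and 11.35, 11.43 and 11.48, and 12.06 and 12.03, and fell by 0.76 in CD34+Flt3hi cells in the fit of single probe sets (limma adjusted p = 0.0233). The dimmer 1435304_at and 1440222_at differed the other way, by 0.80 and 0.47, and did not pass. The mean of all 5 Sod1 probe sets gave -0.10 (limma adjusted p = 0.859). The call was also lost without CD34+Flt3hi replicate 1 (adjusted p = 0.359) or 2 (0.223) and without an intensity trend in the fit (0.126).

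Sod2 (Entrez gene 20656, probe set 1448610_a_at) averaged 9.02 ± 0.16 in CD34+Flt3hi cells, with 9.32 ± 0.11 in CD34+Flt3- cells and with 9.65 ± 0.29 in CD34-Flt3- cells (SD, n = 2 each). The arrays stood in the order of the gates with no overlap, at 8.91 and 9.13, 9.25 and 9.40, and 9.86 and 9.45. No comparison passed, and the widest, CD34+Flt3hi minus CD34-Flt3-, was -0.63 ± 0.24 (SE; limma adjusted p = 0.188). Probe set 1417193_at had the same order (8.63 and 8.75, 9.01 and 9.07, 9.67 and 9.19), 1454976_at overlapped between gates, and 1417194_at was near background.

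Cat (Entrez gene 12359, probe set 1416429_a_at) read 8.82 and 8.93 in CD34+Flt3hi cells, 9.02 and 8.56 in CD34+Flt3- cells, and 9.28 and 8.78 in CD34-Flt3- cells. The groups overlapped in all 3 comparisons, and so did those of probe set 1416430_at. The 95% interval of the difference ran from -0.85 to 0.36 for CD34+Flt3- minus CD34-Flt3-, from -0.52 to 0.69 for CD34+Flt3hi minus CD34+Flt3- and from -0.76 to 0.45 for CD34+Flt3hi minus CD34-Flt3-.

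**Figure D2:**
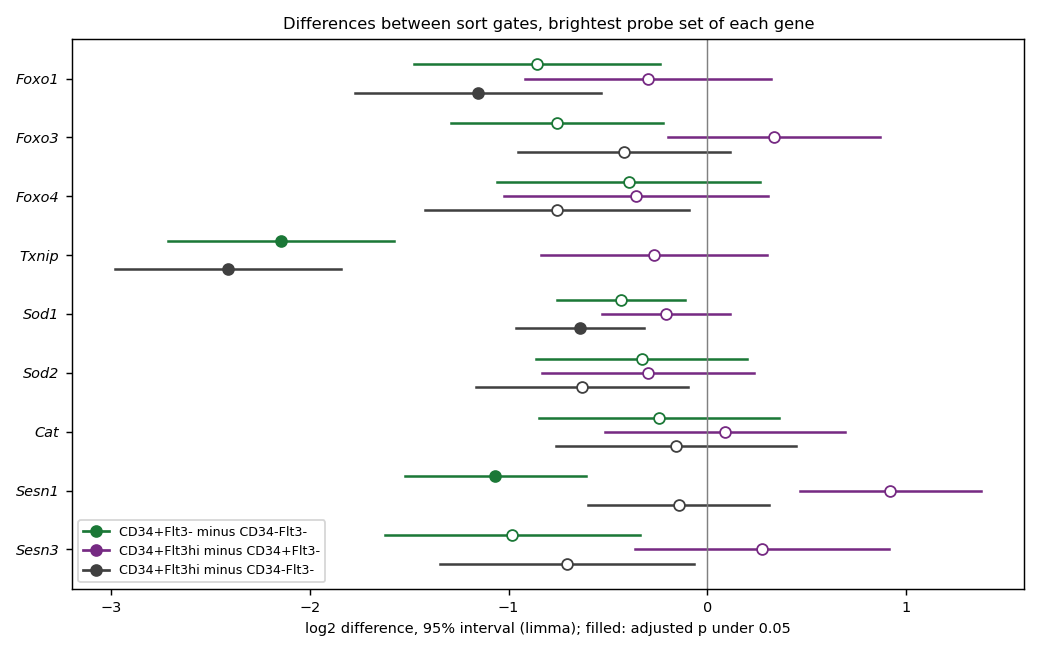
Log2 differences (x axis) of the brightest probe set of each gene (rows) in the 3 comparisons, with 95% intervals from limma; filled points passed an adjusted p of 0.05. Txnip lies at -2.14 and -2.41 for the comparisons with CD34-Flt3- cells, and Sesn1 lies at -1.07 for CD34+Flt3- minus CD34-Flt3- and at 0.92 for CD34+Flt3hi minus CD34+Flt3-.

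Across the 3 gates, a moderated F test passed for Txnip (limma adjusted p = 0.00145) and Sesn1 (adjusted p = 0.0260), 2 of the 9 genes, where 4.67% of all genes passed. Whether a gene changed differently between CD34+Flt3hi and CD34+Flt3- cells than between CD34+Flt3- and CD34-Flt3- cells was tested as the difference of these differences. By limma 0 of the 9 genes passed, against 0.0275% of all genes (5 genes), and 4 had an unadjusted p under 0.05, against 9.29% of all genes. Sesn1 had the smallest p of the 9 (1.99 ± 0.35, unadjusted p = 0.000238, adjusted p = 0.155), followed by Txnip (1.88 ± 0.44, adjusted p = 0.309), Foxo3 (1.09 ± 0.41, adjusted p = 0.484) and Sesn3 (1.26 ± 0.50, adjusted p = 0.490).

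**Figure D3:**
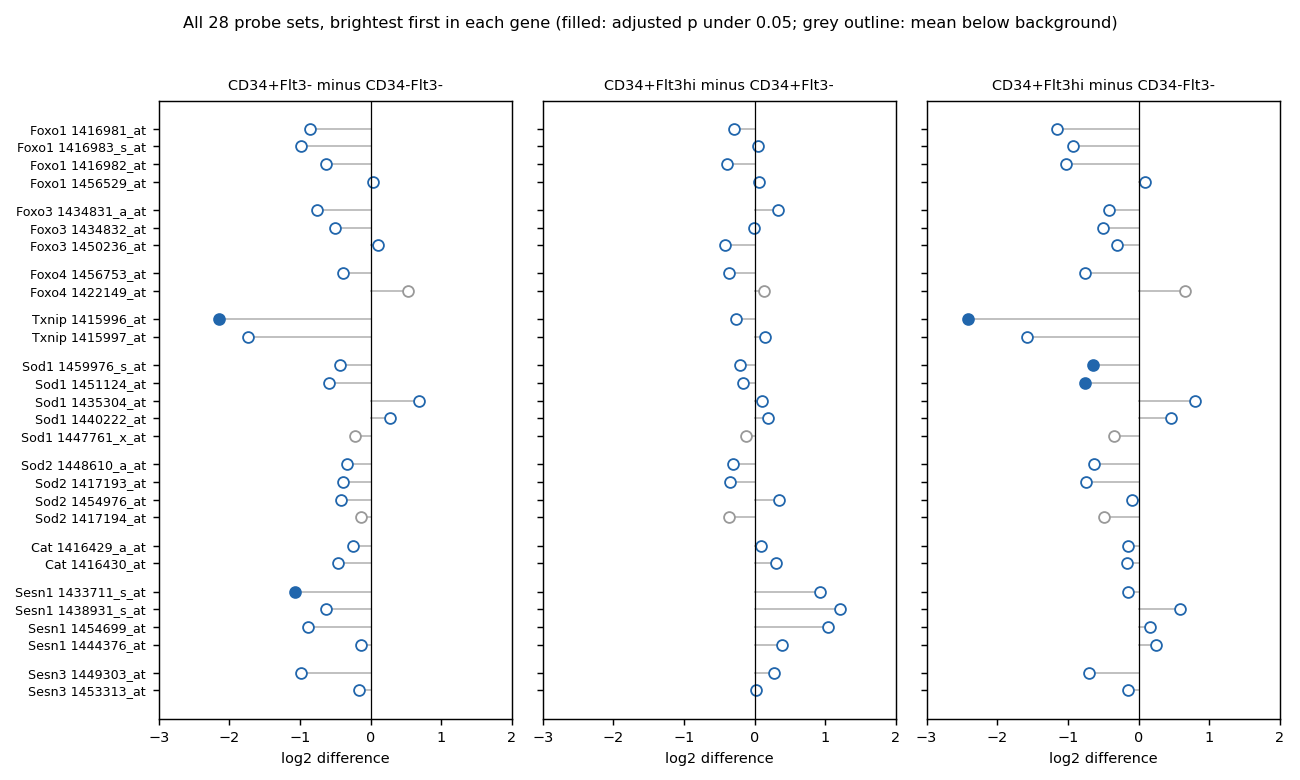
Log2 differences (x axis) of all 28 probe sets (rows, brightest first within a gene) in the 3 comparisons; filled points passed an adjusted p of 0.05 over all probe sets, and grey points mark probe sets with a mean below background. Both Txnip probe sets lie left of 0 in the comparisons with CD34-Flt3- cells, all 4 Sesn1 probe sets lie right of 0 for CD34+Flt3hi minus CD34+Flt3-, and the Sod1 probe sets lie on both sides.

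Among the 28 probe sets, 2 fell in the CD34 step, 0 in the Flt3 step and 3 in the full span, and 0 rose, where 1.12%, 0.343% and 4.13% of all probe sets were called in either direction. These were Txnip 1415996_at and Sesn1 1433711_s_at in the first, and Txnip 1415996_at with the 2 bright Sod1 probe sets in the last. The arrays of CD34+Flt3- cells lay wholly below those of CD34-Flt3- cells in 15 of the 28 probe sets, as in 25.7% of all, and wholly above in 3, as in 16.6%. Probe sets of 1 gene share its transcripts and are no separate evidence.

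The promoters of the 4 genes with a call are shown because FoxO factors are known to bind DNA at the motif GTAAACA. The 250 bases before each start site were searched on both strands for GTAAACA, for the E-box CACGTG bound by glucose-sensing factors, for the CCAAT box and for the antioxidant response element TGACNNNGC. RefSeq sequences of GRCm38.p6 were found for 8 of the 9 genes, with 9 start sites. Capitals mark a match to the FoxO motif, the CCAAT box or the antioxidant response element on either strand, and each sequence is read 5′ to 3′ along the gene.
Txnip promoter, chr3:96557707-96557956, plus strand: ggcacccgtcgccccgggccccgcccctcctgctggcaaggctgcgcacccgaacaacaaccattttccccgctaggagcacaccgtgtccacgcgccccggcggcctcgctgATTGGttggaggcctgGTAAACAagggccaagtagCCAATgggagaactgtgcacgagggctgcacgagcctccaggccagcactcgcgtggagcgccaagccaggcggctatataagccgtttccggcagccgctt
Foxo1 promoter, chr3:52268087-52268336, plus strand: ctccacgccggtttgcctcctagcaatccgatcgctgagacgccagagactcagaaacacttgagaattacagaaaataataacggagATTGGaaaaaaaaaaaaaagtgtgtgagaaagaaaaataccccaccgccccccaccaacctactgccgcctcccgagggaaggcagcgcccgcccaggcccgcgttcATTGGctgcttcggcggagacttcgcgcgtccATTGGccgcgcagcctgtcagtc
Sod1 promoter, chr16:90220512-90220761, plus strand: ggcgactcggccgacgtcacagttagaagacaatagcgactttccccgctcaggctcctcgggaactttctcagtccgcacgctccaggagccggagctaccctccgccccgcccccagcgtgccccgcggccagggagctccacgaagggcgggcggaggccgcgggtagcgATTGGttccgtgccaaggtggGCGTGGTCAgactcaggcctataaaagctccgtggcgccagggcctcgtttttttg
Sesn1 upstream start promoter, chr10:41810324-41810573, plus strand: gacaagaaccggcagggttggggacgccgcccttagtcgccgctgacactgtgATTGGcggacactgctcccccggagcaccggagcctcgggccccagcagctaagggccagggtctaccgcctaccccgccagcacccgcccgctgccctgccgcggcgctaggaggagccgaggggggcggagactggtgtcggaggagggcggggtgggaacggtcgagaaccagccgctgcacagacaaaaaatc
Sesn1 downstream start promoter, chr10:41887189-41887438, plus strand: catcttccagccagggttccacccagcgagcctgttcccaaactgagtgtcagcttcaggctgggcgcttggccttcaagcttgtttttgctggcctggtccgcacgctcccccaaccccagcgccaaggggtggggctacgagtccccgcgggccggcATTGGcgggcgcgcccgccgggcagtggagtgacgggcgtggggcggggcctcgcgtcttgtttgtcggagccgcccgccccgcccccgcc

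Of the 9 start sites, 1 held GTAAACA, that of Txnip, 121 bases before the start, and 3.17% of 32851 promoter windows of that length held it. In Txnip it lies between CCAAT boxes at 137 and 102 bases before the start. CCAAT was found at 8 of the 9 start sites, as in 33.9% of all windows, and 4 matches each lay before Cat and Sesn3. TGACNNNGC was found at 1 of the 9, that of Sod1, as in 10.2% of all windows, and CACGTG at 0 of the 9, as in 6.02%. Only the exact letters CACGTG were searched, so this 0 does not show that E-boxes of other letters are absent. A match describes the letters only, and binding was not measured.

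The pattern of a member over the 6 arrays was compared with all other genes of a mean above background, for the 3 members whose group means spanned at least 1 log2 unit, by the root mean square difference of values centred on each gene's mean. For Txnip the nearest were Cpxm1 (0.06 log2 units), Cldn12 (0.16) and Tns2 (0.20) among 13333 genes. In the CD34+ gates Cpxm1 lay between 4.05 and 4.83 and Tns2 between 4.51 and 4.82, both near background. Cldn12, a claudin gene, read 5.71 and 5.93 in CD34+Flt3hi cells, 6.15 and 6.03 in CD34+Flt3- cells, and 8.28 and 8.42 in CD34-Flt3- cells. For Sesn1 they were Trp53bp2 (0.07), Retreg1 (0.10) and Snrk (0.10). Trp53bp2, which encodes a p53-binding protein, read 7.58 and 7.47 in CD34+Flt3hi cells, 6.89 and 6.59 in CD34+Flt3- cells, and 7.80 and 7.60 in CD34-Flt3- cells. For Foxo1 they were Dnajb4 (0.09), Pml (0.09) and Ccdc136 (0.09).

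Other genes of these pathways were read from 8 lists, which held 180 measured genes besides the 9. In the CD34 step 8 of the 180 fell and 0 rose, beside 1.33% and 0.770% of all genes. In the full span 13 fell and 2 rose, beside 3.50% and 2.62% of all genes. In the Flt3 step 0 of the 180 passed by limma, and 19 had an unadjusted p under 0.05, beside 0.610% and 6.76% of all genes. The medians of the 180 genes were -0.26, -0.21 and 0.12 in that order.

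Of 38 genes that FoxO factors are known to control, 3 fell in the CD34 step and 4 in the full span, and 0 rose (medians -0.52 and -0.25). Of all genes, 1.33% and 3.50% fell and 0.770% and 2.62% rose in these comparisons (medians -0.10 and -0.07). The same shares stand beside each list below, and 1 call in a list of this size says little about the list. The FoxO list does not separate genes that FoxO factors raise from genes that they lower, so its falls do not measure FoxO activity. Gabarapl1, an autophagy gene, read 10.23 and 10.16 in CD34+Flt3hi cells, 10.17 and 9.87 in CD34+Flt3- cells, and 11.80 and 11.54 in CD34-Flt3- cells, so that only the CD34-Flt3- arrays stood apart. It fell by 1.65 ± 0.20 in CD34+Flt3- cells (limma adjusted p = 0.0101) and by 1.47 ± 0.20 in CD34+Flt3hi cells (adjusted p = 0.00258), and its other probe set fell as well. Pik3ip1, an inhibitor gene of PI3K, read 9.50 and 9.32, 9.79 and 9.01, and 10.92 and 10.60 in the same order, and fell by 1.36 ± 0.28 (adjusted p = 0.0403) and 1.35 ± 0.28 (adjusted p = 0.0186), while its other probe set differed by -0.53 and -0.41 and did not pass. The cyclin gene Ccnd2 fell by 0.94 (adjusted p = 0.0359) and 0.74 (adjusted p = 0.0440), with its 6 other probe sets between -0.97 and 0.20. Pink1, a kinase gene of mitochondrial quality control, fell by 0.86 in CD34+Flt3hi cells (adjusted p = 0.0376).

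Of 36 PI3K, Akt and FoxO regulators, 1 fell in the CD34 step, and 1 fell and 1 rose in the full span. The gene that fell was Trib2, a pseudokinase gene whose product is known to restrain FoxO3 in human melanoma cells. Its mean lay below background in both CD34+ gates (3.99 and 4.93 in CD34+Flt3hi, 4.51 and 4.01 in CD34+Flt3- cells), so that only a bound is given: it was at least 6.83-fold lower in CD34+Flt3- cells (limma adjusted p = 0.0171) and at least 5.92-fold lower in CD34+Flt3hi cells (adjusted p = 0.00512). The CD34-Flt3- arrays read 7.90 and 6.65, and the 2 other Trib2 probe sets differed by -0.19 to 0.09. Sgk3, a kinase gene related to Akt, was 1.23 ± 0.30 higher in CD34+Flt3hi cells (adjusted p = 0.0394), with 9.47 and 9.04 in CD34+Flt3hi cells and 8.31 and 7.75 in CD34-Flt3- cells, and both other probe sets differed in the same direction.

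Among 18 other superoxide and peroxide scavengers, 1 fell in the CD34 step, and 2 fell and 1 rose in the full span. The methionine sulfoxide reductase genes went opposite ways in CD34+Flt3hi cells: Msra was 1.16 ± 0.24 higher (limma adjusted p = 0.0208), while Msrb2 fell by 1.35 ± 0.25 (adjusted p = 0.0121). Gpx8, a glutathione peroxidase family gene, was at least 1.47-fold lower in both CD34+ gates (limma adjusted p = 0.00677 for the full span and 0.0421 for the CD34 step). Of 26 thioredoxin and glutathione genes 0 passed by limma, with 4, 1 and 5 at an unadjusted p under 0.05 in the CD34 step, the Flt3 step and the full span, beside 16.9%, 6.76% and 18.3% of all genes. The lowest unadjusted p values were those of Gclm (-0.92 for CD34+Flt3hi minus CD34+Flt3-, limma adjusted p = 0.274) and Glrx5 (-0.64 for CD34+Flt3- minus CD34-Flt3-, adjusted p = 0.154).

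Of 21 genes of the Nrf2 pathway, which answers oxidative stress, 1 fell in the CD34 step and 2 in the full span. The autophagy receptor gene Sqstm1 fell by 1.29 (limma adjusted p = 0.0394) and 1.19 (adjusted p = 0.0246), while its other probe set differed by 0.53 and 0.01. The metallothionein gene Mt1 fell by 2.78 ± 0.51 in CD34+Flt3hi cells (adjusted p = 0.0110), with 4.88 and 4.77 there and 8.44 and 6.76 in CD34-Flt3- cells, while its other probe set differed by 0.14. Among 14 relatives of Txnip and glucose-sensing partners only the glucose transporter gene Slc2a3 passed, which fell by 1.60 ± 0.23 in CD34+Flt3hi cells (adjusted p = 0.00359), with its 3 other probe sets between -1.60 and 0.30. Of 23 sestrin partners and p53 targets only the kinase gene Plk2 passed, which fell by 2.06 ± 0.31 in CD34+Flt3- cells (adjusted p = 0.0176) and by 1.34 in CD34+Flt3hi cells (adjusted p = 0.0333), while its other probe set differed by 1.22 and 0.60. In a list of 17 genes tied to reactive oxygen in blood stem cells, 1 fell in the CD34 step and 2 in the full span. The genes are tied to it in different ways, Mapk14 as a kinase gene that acts downstream of it. Whether loss of each listed gene raises reactive oxygen was not tested. Prdm16 fell by 1.72 ± 0.27 in CD34+Flt3- cells (adjusted p = 0.0179) and by 2.46 ± 0.27 in CD34+Flt3hi cells (adjusted p = 0.00103), with its 3 other probe sets between -1.08 and 0.28 in the CD34 step and between -1.53 and -0.01 in the full span. Meis1 fell by 1.45 ± 0.24 in CD34+Flt3hi cells (adjusted p = 0.00614), with its 2 other probe sets at -0.80 and 0.36. All calls of CD34+Flt3- against CD34-Flt3- cells in these lists were lost without CD34+Flt3- replicate 2, where limma called 0 of all genes.

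**Figure D4:**
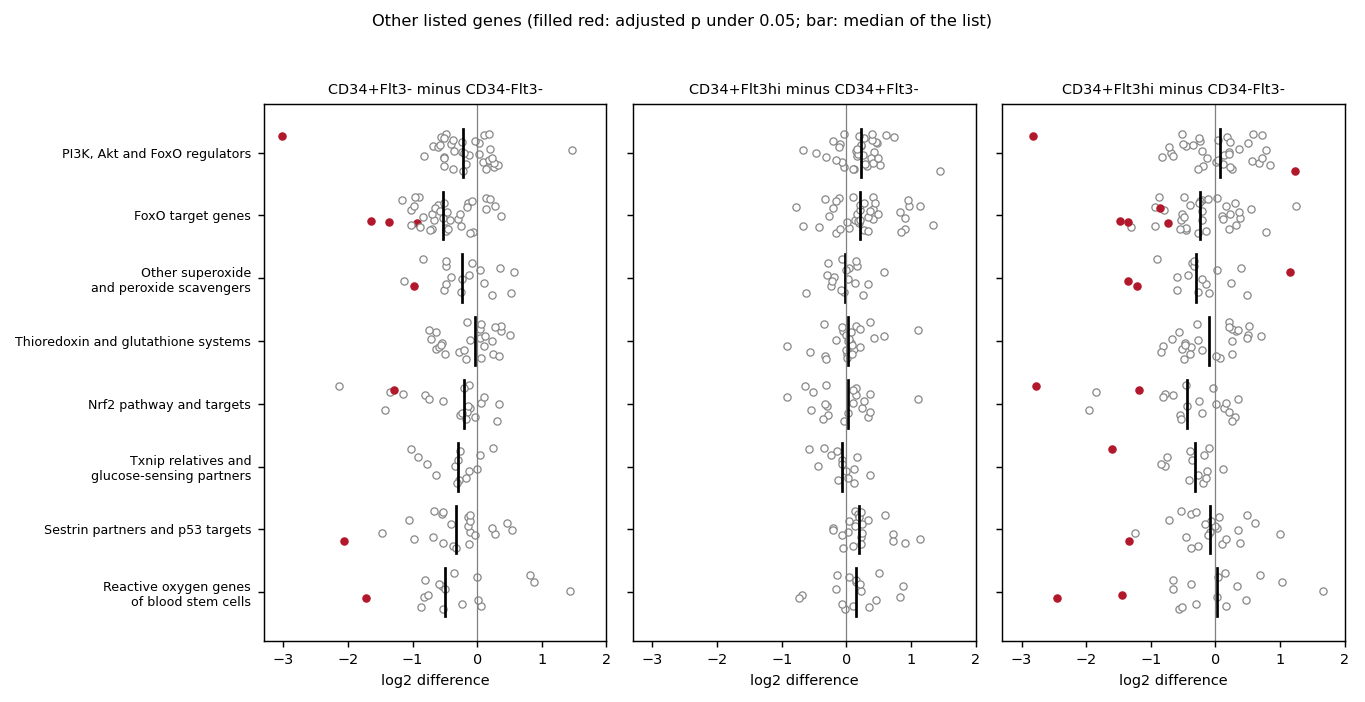
Log2 differences (x axis) of the listed genes in 8 lists (rows) for the 3 comparisons, 1 point for each gene and a bar for the median of a list; filled red points passed an adjusted p of 0.05 over all genes. In the comparison of CD34+Flt3hi with CD34+Flt3- cells 0 of 180 genes passed, and in the comparison of CD34+Flt3hi with CD34-Flt3- cells 13 fell and 2 rose.

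The arrays were alike in their median linear intensity, between 29.7 and 31.4, but RMA normalization makes such medians alike, so this says little about array quality. The 3 prime actin control read 12426 and 12814 in CD34+Flt3hi cells, 12963 and 12587 in CD34+Flt3- cells, and 7693 and 7368 in CD34-Flt3- cells. That of Gapdh lay between 6530 and 7671. The 2 arrays of a group differed over 2-fold in 112 genes for CD34+Flt3hi, 476 for CD34+Flt3- and 1352 for CD34-Flt3- cells. Cd34 RNA read 11.35 and 11.34 in CD34+Flt3hi cells, 10.51 and 10.68 in CD34+Flt3- cells, and 8.78 and 9.45 in CD34-Flt3- cells. Flt3 RNA read 12.01 and 11.75, 8.84 and 9.81, and 7.65 and 9.16 in the same order, and Kit lay between 8.82 and 10.99. The 3 prime over 5 prime ratio of Gapdh, a sign of RNA quality, was 6.59 and 8.42 in CD34+Flt3hi cells, 6.83 and 7.50 in CD34+Flt3- cells, and 5.04 and 6.34 in CD34-Flt3- cells, lowest where Txnip was highest. The same ratio of actin ran otherwise, at 3.69 and 3.79, 3.25 and 4.44, and 3.58 and 5.55 in the same order. Some summed marker intensities of other cells differed between the gates too, and the brightest genes weigh most in such sums. The summed intensity of 7 megakaryocyte and platelet markers was 298 and 255 in CD34+Flt3hi cells, 2271 and 1084 in CD34+Flt3- cells, and 3335 and 3580 in CD34-Flt3- cells. Vwf, the brightest of them in CD34-Flt3- cells, read 4.06 and 3.90, 8.25 and 5.53, and 11.12 and 10.78 in the same order. The median log2 difference of the 7 was -0.003 in the CD34 step, where only Vwf passed. It was -1.63 in the full span, where 5 fell. The summed intensity of 7 erythroid markers was 4802 and 5184, 7934 and 5409, and 11685 and 7453 in the same order, with Car2 the brightest of them. Hba-a1 and Slc4a1 reached at most 4.52 and 4.68 on the log2 scale. In the full span Klf1 and Car2 fell (limma adjusted p = 0.0364 and 0.0395), and the median log2 difference of the 7 was -0.22. Sums of 11 neutrophil and monocyte markers were 1623 and 1274, 1335 and 1336, and 1285 and 1325 in the same order, with the CD34+Flt3hi arrays overlapping both other gates and S100a8, Ltf, Lcn2 and Itgam below background on all arrays. Csf1r of that list, a receptor gene, was 8.91-fold higher in CD34+Flt3hi cells in the full span (limma adjusted p = 0.00117) and 4.08-fold higher in the Flt3 step (adjusted p = 0.0447). Endothelial and stromal markers (8) summed to 285 and 220, 290 and 253, and 530 and 481, highest in CD34-Flt3- cells, with Kdr and Col1a2 lower in CD34+Flt3hi cells (adjusted p = 0.00732 and 0.0230) and Cdh5 below background on all arrays. Sums of 6 T and NK markers were 956 and 972, 1343 and 1357, and 392 and 539, lowest in CD34-Flt3- cells. Nkg7, the brightest of that list, was 4.45-fold higher in the CD34 step (limma adjusted p = 0.00880). The median log2 difference of the list was 0.20 in that step and -0.03 in the full span. Sums of 7 mast cell, basophil and eosinophil markers were 283 and 178, 672 and 555, and 335 and 294. They were highest in CD34+Flt3- cells, where Sesn1 was lowest. Cpa3, the brightest of that list in CD34+Flt3- cells, read 4.91 and 4.17, 8.88 and 8.29, and 7.79 and 7.37 in the same order. Mcpt8 read highest on CD34+Flt3hi replicate 1, at 7.35. The median log2 difference of the list was 0.51 in the CD34 step, -0.18 in the Flt3 step and -0.007 in the full span. Sums of 7 B lineage markers were 325 and 324, 293 and 345, and 439 and 424. The part of RNA quality and of these markers in the results was not tested.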

How the data were processed

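RNA of 6 sorted cell samples was hybridised to Affymetrix arrays. The authors' deposited values are array intensity on a linear scale, made with RMA per the submitters' processing notes; the RMA version and settings are not given in the sources used here, and the scale was read from the values, which ran from 6.50 to 24174. Probe sets were named through GEO's platform annotation, with 99.4% updated by Entrez gene ID. Values were taken to log2, control probe sets left out, and each gene read from its brightest probe set. limma 3.58.1 in R 4.3.3 (linear model of 3 groups, empirical Bayes with an intensity trend, 3 residual degrees of freedom) gave differences, 95% intervals and Benjamini-Hochberg adjusted p-values, and was tested on simulated data. The number of arrays limits the precision: with 2 a group, an exact permutation test gives no p below 0.333. Listed genes were named where they passed, up to 4 a list, or else by the lowest p. The members and lists were chosen with earlier results of these data known. Alternatives changed the normalization, the choice of probe set, the model and the arrays.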

Additional observations from a re-analysis of the deposited data

Results flagged for a closer look

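A probe set outside the comparisons gave a signal: 1444226_at, annotated to both Gm38485 and Foxo3 and so not counted as Foxo3, averaged a log2 intensity of 5.37 (4.81 to 5.83) and lay above background on 6 of 6 arrays.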

How the results depend on the processing

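Over 20 alternative settings, 500 of 540 values of the 9 genes kept their direction and their side of the threshold. Cat reversed most often: CD34+Flt3hi minus CD34-Flt3- was 0.00516 with the title code as a fixed replicate block, CD34+Flt3hi minus CD34+Flt3- was -0.0762 after renewed quantile normalization, and leaving out 1 array gave these a range of -0.406 to 0.0940 and of -0.142 to 0.317, with -0.493 to 0.00652 for CD34+Flt3- minus CD34-Flt3-. With the mean of all probe sets, Foxo4 (CD34+Flt3- minus CD34-Flt3-) was 0.0678, Foxo3 (CD34+Flt3hi minus CD34+Flt3-) -0.0283 and Sesn1 (CD34+Flt3hi minus CD34-Flt3-) 0.212; the last was 0.157 without probe sets of x or s suffix. Txnip (CD34+Flt3hi minus CD34+Flt3-) ran from -0.573 to 0.0396 with 1 array left out. None of these passed, and the cause was not tested.

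The fixed replicate block fits terms for the title codes, which leaves fewer residual degrees of freedom than the 3 of the main fit. Code C stands on CD34-Flt3- replicate 1 alone, so its term absorbs that array. Comparisons with CD34-Flt3- cells then rest on replicate 2 of that gate, and the counts of this block are no measure of stronger differences. Counts below run in the order of genes, members, member probe sets and other pathway genes called. For CD34+Flt3- minus CD34-Flt3-, the fixed replicate block called 1579 genes, 4 probe sets and 27 pathway genes, no intensity trend 1 member, 1 probe set and 5 pathway genes, array weights 1 probe set and 4 pathway genes, and median centring 1 probe set. The mean of probe sets called 199 genes, 1 member and 2 pathway genes, all probe sets singly 249 genes and 5 pathway genes, only the 4 arrays compared 47 genes, 1 member, 1 probe set and 2 pathway genes, and an adjusted p under 0.10 843 genes and 15 pathway genes. For CD34+Flt3hi minus CD34+Flt3-, the fixed replicate block called 670 genes, 1 member, 3 probe sets and 13 pathway genes, the random replicate block 1 pathway gene, array weights 293 genes, 1 member, 2 probe sets and 1 pathway gene, the mean of probe sets 69 genes, the 4 arrays compared 300 genes with 1 member, 1 probe set and 1 pathway gene, and an adjusted p under 0.10 1 pathway gene. For CD34+Flt3hi minus CD34-Flt3-, the fixed replicate block called 2360 genes and 34 pathway genes, the mean of probe sets 1 member, an adjusted p under 0.10 6 probe sets and 25 pathway genes, and a 2-fold minimum 1 probe set. The difference of the steps called 2 members with the fixed replicate block, and the F test 1 with the mean of probe sets and 4 at an adjusted p under 0.10.

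Leaving out each array in turn gave, in the same order of comparisons, 0 to 983, 18 to 300 and 271 to 1918 genes, 0 to 3, 0 to 1 and 1 to 3 members, 0 to 4, 0 to 1 and 1 to 6 probe sets, and 0 to 23, 0 to 1 and 2 to 29 pathway genes; the difference of the steps called 0 to 1 members and the F test 1 to 2. Among arrays of title code A, deviations from the group mean correlated with r of 0.31 between CD34+Flt3- and CD34-Flt3- cells. The r was 0.07 and 0.06 between CD34+Flt3hi cells and these 2 groups. What the code means is not stated, so it was left out of the main fit, and whether its arrays share a batch was not tested. With the fixed replicate block Foxo3 differed by -1.04 in CD34+Flt3- minus CD34-Flt3-, where only replicate 2 stands for CD34-Flt3- cells. That block called Sesn1 in CD34+Flt3hi minus CD34+Flt3- (0.92, limma adjusted p = 0.00170), with fewer residual degrees of freedom than the main fit.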
